A study of Mus musculus with 26 samples.

Results

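The Notch receptors Notch1, Notch2, Notch3 and Notch4 and the DNA-binding protein Rbpj were followed as 5 genes, found by name among the 24454 genes listed in the deposited count table. Each gene had its row, and each passed the filter on low counts, which left 15617 genes for testing. The 26 RNA-seq libraries came from mouse gliomas driven by PDGF in which Trp53 was knocked out in every group, the controls included. Early tumours were recognised by GFP from the Rosa-CAG::GFP reporter of Cre activity, and GFP+ cells were sorted by flow cytometry. Of the 5 genotypes, control tumours with Notch1, Notch2 and Rbpj intact and Notch1-/- tumours had 6 libraries each. Tumours labelled Notch2-/- and those labelled Notch1-/-Notch2-/- had 5 each, and 4 libraries were Rbpj-/-. The labels name no promoter or cell type for Cre, no age or sex of the mice and no exon removed from any allele. Nor do they tie replicates to different mice. The p-values therefore reflect how far these libraries spread, which may be technical. Genotype names below are those of the labels.

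Notch receptors are membrane proteins bound by the ligands Delta-like and Jagged on neighbouring cells. Ligand binding leads to cleavage by ADAM proteases and then by gamma-secretase, which frees the intracellular domain to enter the nucleus. There it joins Rbpj and a Mastermind coactivator and turns on genes such as Hes1, Hes5 and Hey1, whereas without it Rbpj recruits corepressors. Notch1 and Notch2 are known in neural progenitors and cells of the oligodendrocyte and astrocyte lineages, Notch3 in mural cells (pericytes and smooth muscle) of brain vessels, and Notch4 in endothelium.

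The promoters of Rbpj and Notch1 are shown because Rbpj RNA fell and Notch1 RNA rose in Rbpj-/- tumours, and because Rbpj binds DNA at the letters TGGGAA. Each sequence is the 250 bases before a transcript start in the RefSeq promoter table of GRCm38.p6, the assembly called mm10, written 5′ to 3′ on the gene's strand. Capitals mark TGGGAA or, where it lies on the other strand, TTCCCA. The Rbpj window is chr5:53590096-53590345 on the plus strand, and the Notch1 window is chr2:26503823-26504072 on the minus strand.
Rbpj: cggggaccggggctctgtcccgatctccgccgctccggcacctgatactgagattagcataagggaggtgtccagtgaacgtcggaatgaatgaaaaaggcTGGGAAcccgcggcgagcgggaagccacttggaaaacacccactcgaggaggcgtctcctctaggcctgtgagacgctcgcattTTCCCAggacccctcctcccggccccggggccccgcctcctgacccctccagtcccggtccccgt
Notch1: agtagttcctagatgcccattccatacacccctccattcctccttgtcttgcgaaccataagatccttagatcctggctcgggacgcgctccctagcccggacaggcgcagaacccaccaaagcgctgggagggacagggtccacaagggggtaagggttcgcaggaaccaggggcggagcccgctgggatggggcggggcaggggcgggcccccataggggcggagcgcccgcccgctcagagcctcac
The Rbpj window held the motif once on each strand, starting 149 and 65 bases before the start. A second Rbpj start had an overlapping window, chr5:53590236-53590485, with 1 match. No match lay in the windows of Notch1, Notch2, Notch3 or Notch4. Of all 32851 promoter windows of 250 bases, 21.6% held the motif on either strand, so a match is common.

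Gene positions in the RefSeq table were chromosome 2, 26457902 to 26503822, for Notch1 (Entrez 18128) and chromosome 3, 98013538 to 98150367, for Notch2 (Entrez 18129). Notch3 (Entrez 18131) lay at 32120820 to 32166896 and Notch4 (Entrez 18132) at 34564286 to 34588543 on chromosome 17, and Rbpj (Entrez 19664) at 53555779 to 53657445 on chromosome 5. The longest coding transcript in GENCODE M21 had 34 exons for Notch1 and for Notch2, 33 for Notch3, 30 for Notch4 and 11 for Rbpj. Reads of near-identical copies could touch Rbpj most. Of the 50-base words of its longest coding transcript, 23.3% also occur in the pseudogenes Rbpj-ps1 and Rbpj-ps3, beside 13.7% shared with overlapping genes for Notch1 and none for Notch4. No such word was shared between 2 of the 5 genes.

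Depth was 30868828 to 48103535 counts per library. The glioma label was checked against Olig2, Pdgfra and Sox10, genes of oligodendrocyte precursors that PDGF-driven gliomas resemble. Their lowest values in any library were 373, 1680 and 262 CPM (the count scaled by library depth, with TMM-scaled totals). Control replicate 6 and Notch2-/- replicates 3 and 4 held both Xist, the X-inactivation RNA of female cells, at 412, 71.3 and 1920 CPM, and the Y-linked Ddx3y at 64.0, 45.9 and 74.1 CPM. Results were therefore also computed without these 3 libraries. A gene is said to have risen or fallen where its adjusted p in edgeR's quasi-likelihood test was under 0.05.

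In control tumours Notch1 was the main receptor and stood near Rbpj, whereas the other receptors were rare. Per kilobase of gene, so that genes can be compared, the control level was 11.5 ± 3.24 CPM per kb for Notch1 (SD, n = 6) and 10.3 CPM per kb for Rbpj. Notch2 stood at 1.21, Notch4 at 0.308 and Notch3 at 0.248 CPM per kb. Notch1 was thus 9.49 times as high as Notch2, 37.2 times as high as Notch4 and 46.1 times as high as Notch3 per length. Among the genes tested, 59.2% had a lower control level per length than Notch1, but only 9.07% had one lower than Notch3. Counts per library ran from 3225 to 8748 for Notch1, 871 to 3554 for Rbpj and 281 to 783 for Notch2. Notch3 rested on 9 to 209 counts and Notch4 on 10 to 212, so their folds are the least precise.

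**Figure D1:**
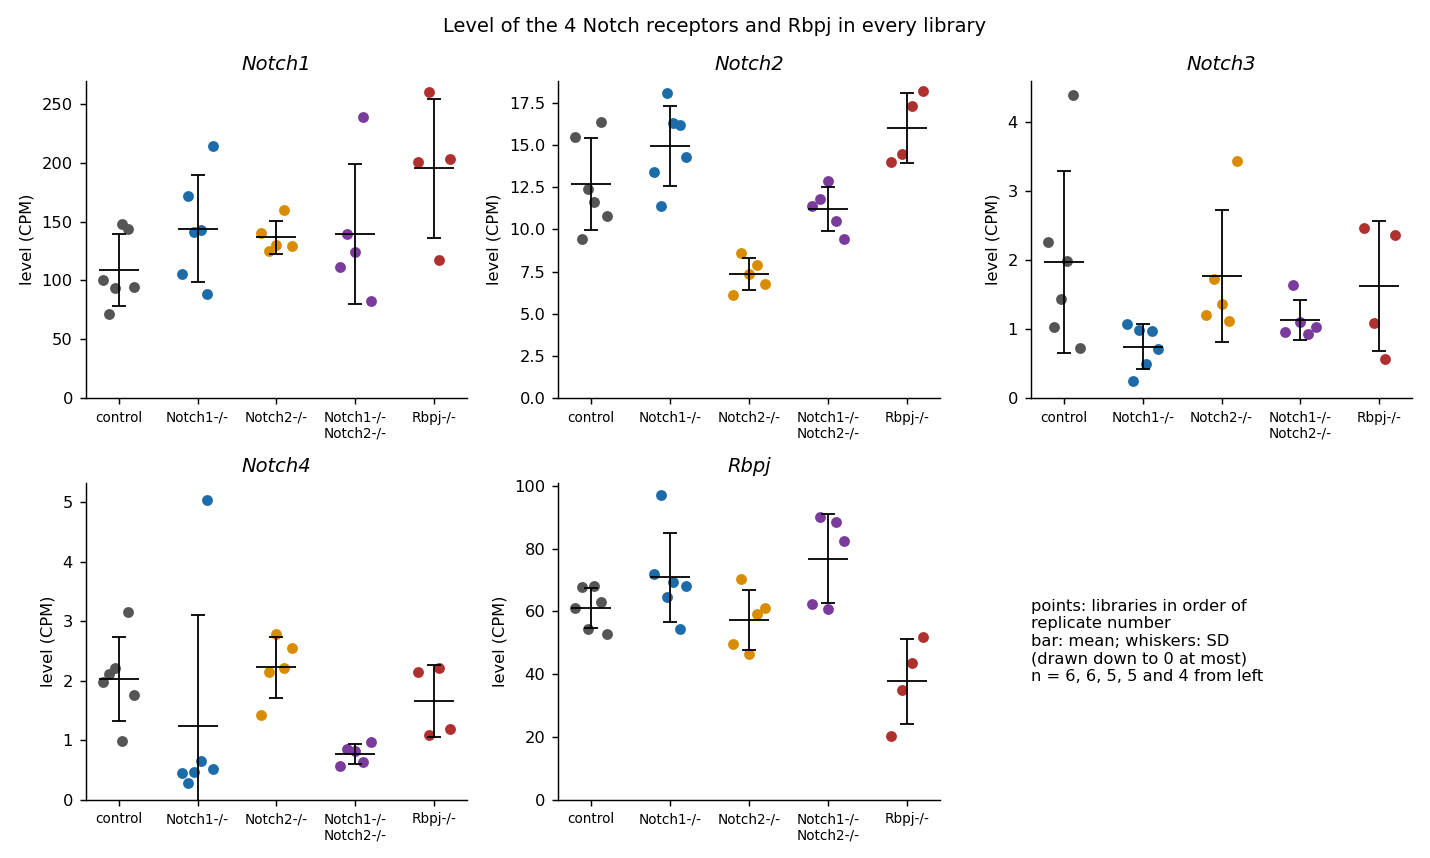
Each panel plots the level of 1 gene (vertical axis, CPM from 0) in the 26 libraries by genotype, with a bar at the mean and whiskers of 1 SD drawn down to 0 at most. Notch2 is lowest in Notch2-/- and Rbpj in Rbpj-/-, both without overlap with control, whereas Notch1 in Notch1-/- overlaps control, and 1 Notch1-/- library stands at 5.04 CPM of Notch4.

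Whole-gene RNA of Notch1 was not lower where Notch1 was labelled as deleted. Control libraries had a lowest, median and highest Notch1 level of 71.2, 97.4 and 148 CPM, and the 6 Notch1-/- libraries of 88.2, 142 and 214 CPM. The groups overlapped, and the log2 fold change of 0.40 ± 0.24 (SE; 95% interval -0.09 to 0.90) did not pass (adjusted p = 0.204). Notch1-/-Notch2-/- libraries held 111, 139, 124, 239 and 82.7 CPM of Notch1. Against control this was a log2 fold change of 0.36 ± 0.25 (interval -0.16 to 0.87, adjusted p = 0.270). Both intervals reach only slightly below 0. The deposited counts sum each gene over all exons, so they do not check the removal of a stretch of Notch1, and the labels do not say which stretch was removed.

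Notch2 RNA fell where Notch2 alone was deleted. Control libraries ranged from 9.42 to 16.4 CPM with a median of 12.0 CPM, and the 5 Notch2-/- libraries held 6.14, 8.58, 7.34, 7.90 and 6.79 CPM. Each Notch2-/- library was below every control library. The fall was 0.58-fold of control (log2 fold change -0.79 ± 0.15, interval -1.10 to -0.47, adjusted p = 0.0200). Notch2 was 1 of 5 genes called in this contrast, where only 0.295% of all genes tested passed. The call was lost, with the fall nearly as large, without Notch2-/- replicate 1 (-0.73, adjusted p = 0.0790), Notch2-/- replicate 5 (-0.76, 0.0717) or control replicate 5 (-0.70, 0.0564), and without the 3 libraries of both sexes' RNA (-0.86, 0.121). With marker scores as covariates, each the mean log2 CPM of the marker genes of a cell type in a library, it was lost with the mural score (-0.72, adjusted p = 0.0540) and with both vascular scores (-0.72, 0.0658).

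In the double mutants Notch2 did not pass against control. It stood at 11.4, 11.8, 12.9, 10.5 and 9.43 CPM in the 5 Notch1-/-Notch2-/- libraries, all inside the control range of 9.42 to 16.4 CPM. Against control the log2 fold change was -0.18 ± 0.15 (interval -0.49 to 0.14, adjusted p = 0.377). Every double-mutant library was above every Notch2-/- library, and the difference between these genotypes passed, at 1.53-fold (log2 0.61 ± 0.16, adjusted p = 0.0115). In that contrast 17.4% of all genes passed. Notch1-/- libraries, with Notch2 intact, held 11.4 to 18.1 CPM of Notch2 (median 15.2) and were 2.03-fold above Notch2-/- (log2 1.02 ± 0.16, adjusted p = 0.000398, with 3.09% of all genes passing). With marker scores as covariates, the call between the double mutants and Notch2-/- was lost with the microglia (0.44, adjusted p = 0.209), the endothelial (0.83, 0.107) and both vascular scores (0.72, 0.328) and kept with the mural score (0.78, 0.0147). The call between Notch1-/- and Notch2-/- was lost with the endothelial (1.27, adjusted p = 0.0705) and both vascular scores (1.20, 0.203) and kept with the others. Relative to Notch1-/-, whose range the double mutants overlapped, Notch2 in the double mutants stood at 0.751-fold (log2 -0.41 ± 0.15, interval -0.73 to -0.10), which did not pass after adjustment (unadjusted p = 0.0124, adjusted p = 0.274 in edgeR). Whether the effect of Notch2 loss on Notch2 RNA differed with the Notch1 genotype was tested by the interaction, which did not pass (log2 0.37 ± 0.21, adjusted p = 0.464).

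Rbpj RNA fell in Rbpj-/- tumours. Control libraries had a lowest, median and highest level of 52.9, 62.1 and 68.0 CPM, whereas the 4 Rbpj-/- libraries held 20.4, 35.0, 43.7 and 52.0 CPM. The groups did not overlap, although the highest Rbpj-/- library and the lowest control library were close. Rbpj stood at 0.617-fold of control (log2 fold change -0.70 ± 0.20, interval -1.10 to -0.29, adjusted p = 0.0222), in a contrast where 15.2% of all genes passed. The call was lost without Rbpj-/- replicate 1 (-0.49, adjusted p = 0.0735) or replicate 2 (-0.66, 0.0664). Rbpj-/- tumours were also below Notch1-/- (log2 -0.91 ± 0.20, adjusted p = 0.0478, 0.263% of genes passing) and below Notch1-/-Notch2-/- (-1.03 ± 0.21, adjusted p = 0.0197, 0.794% of genes passing). The first of these calls was lost without any of Notch1-/- replicates 1, 2, 3, 4 and 6 or Rbpj-/- replicates 1, 2 and 3 (adjusted p from 0.0501 to 0.180). The second was lost without Rbpj-/- replicates 1 or 2 or double-mutant replicates 2 or 4 (0.0550 to 0.0687). With each marker score as a covariate Rbpj in Rbpj-/- did not pass against control, at -0.39 with the microglia (adjusted p = 0.567), -0.70 with the endothelial (0.345), -0.67 with the mural (0.106) and -0.72 with both vascular scores (0.556). Against Notch1-/- the call was lost with the endothelial, mural and both vascular scores (adjusted p = 0.187, 0.161 and 0.228), and against the double mutants with both vascular scores (0.0552). In the receptor mutants Rbpj did not pass against control, with log2 fold changes of 0.21 ± 0.17 for Notch1-/-, -0.09 ± 0.18 for Notch2-/- and 0.33 ± 0.18 for the double mutants. Rbpjl, the paralogue of Rbpj, stood at 4.94 ± 1.75 CPM in control (SD, n = 6) and 6.39 ± 3.85 CPM in Rbpj-/- (n = 4).

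Notch1 RNA rose in Rbpj-/- tumours. The 4 libraries held 201, 260, 117 and 203 CPM, and 3 of them were above the highest control library. The rise was 1.79-fold (log2 0.84 ± 0.26, interval 0.30 to 1.39, adjusted p = 0.0340). It lost its call without any of control replicates 1, 2, 3 and 6 or Rbpj-/- replicates 1, 2 and 4 (adjusted p from 0.0577 to 0.132, log2 0.68 to 0.83). It kept it without control replicate 4 or 5 or Rbpj-/- replicate 3. Without the 3 libraries holding Xist and Ddx3y together the value was 0.81 (adjusted p = 0.0788). With the microglia, endothelial, mural and both vascular scores it was 1.12, 0.69, 0.63 and 0.77, none passing (adjusted p = 0.216, 0.482, 0.240 and 0.645). Notch2 in the same tumours held 14.0, 14.5, 17.3 and 18.2 CPM, a log2 difference from control of 0.34 ± 0.16 (interval 0.00 to 0.67) that did not pass (adjusted p = 0.154). Rbpj-/- stood above Notch2-/- in Notch2 by 2.18-fold (log2 1.12 ± 0.17, adjusted p = 0.000947), where 1.7% of all genes passed.

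**Figure D2:**
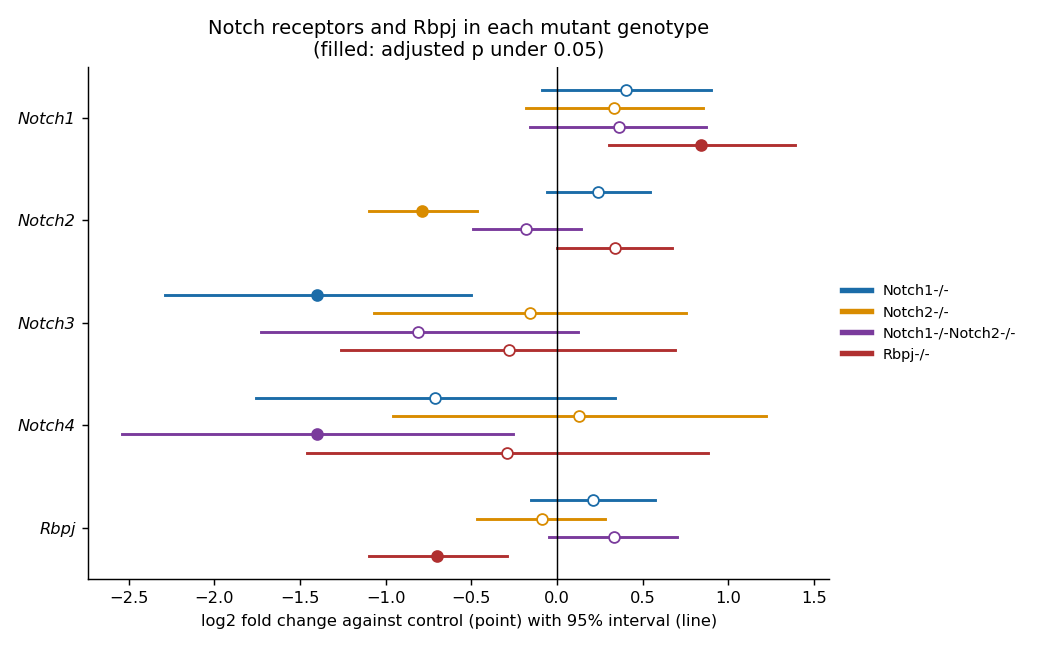
Points give the log2 fold change of each gene against control (horizontal axis) and lines its 95% interval, 1 colour per mutant genotype, with filled points where adjusted p was under 0.05. The 5 filled points are Notch2 in Notch2-/-, Notch3 in Notch1-/-, Notch4 in Notch1-/-Notch2-/-, and Notch1 and Rbpj in Rbpj-/-, and only that of Notch1 lies to the right of 0.

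Neither Notch3 nor Notch4, the rare receptors, rose in any mutant genotype against control. Notch3 stood at a lowest, median and highest of 0.729, 1.71 and 4.39 CPM in control and 0.246, 0.842 and 1.07 CPM in Notch1-/-. It fell in Notch1-/- to 0.379-fold (log2 -1.40 ± 0.43, interval -2.29 to -0.50, adjusted p = 0.0215), with groups that overlapped. It was the 1 gene of 5 called in that contrast, in which 26.7% of all genes passed. Without control replicate 5, which had the 4.39 CPM, the value was -0.99 (adjusted p = 0.0778). In Notch1-/-Notch2-/- Notch3 held 0.955, 1.64, 1.10, 0.929 and 1.03 CPM and did not pass (log2 -0.81 ± 0.45, adjusted p = 0.161).

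Notch4 fell in the double mutants. Control libraries ranged from 0.983 to 3.15 CPM, and the Notch1-/-Notch2-/- libraries held 0.568, 0.848, 0.816, 0.628 and 0.974 CPM. All 5 were below the lowest control library, if narrowly. Notch4 stood at 0.378-fold (log2 -1.40 ± 0.55, interval -2.54 to -0.26, adjusted p = 0.0489) and was the 1 gene of 5 called where 37.1% of all genes passed. Leaving out any library but control replicate 4 took adjusted p above the threshold. These were double-mutant replicates 1 to 5 and control replicates 1, 2, 3, 5 and 6, with adjusted p from 0.0606 to 0.0969. In Notch1-/- 5 libraries held 0.274 to 0.646 CPM and replicate 5 held 5.04 CPM, above every control. With it the log2 fold change was -0.71 ± 0.51 (adjusted p = 0.293), and without it -2.11 (adjusted p = 0.000129).

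Many markers of blood vessel cells fell in 3 of the mutant genotypes. Of 12 endothelial genes 10 fell in Notch1-/-, 11 in the double mutants, 8 in Rbpj-/- and none in Notch2-/-. Of 11 mural genes 6, 4, 3 and 0 fell in the same order. Of all genes tested, 13.5%, 18.8%, 7.25% and 0.166% fell in these contrasts. In Rbpj-/- neither Notch3 nor Notch4 passed, although these markers fell there (adjusted p = 0.712 and 0.757). Control libraries summed to 54.5 to 208 CPM over the endothelial genes and Notch2-/- libraries to 42.9 to 129 CPM. Lower sums were found in Notch1-/- (13.7 to 63.2 CPM), the double mutants (26.1 to 43.9 CPM) and Rbpj-/- (29.0 to 44.0 CPM). The 63.2 CPM, inside the control range, was in Notch1-/- replicate 2. That library held only 1.09 CPM of Pecam1, 0.246 CPM of Cdh5 and 0.192 CPM of Cldn5, so other listed genes made up most of its sum. The summed mural level, left without Cspg4 because glioma cells express it too, was 54.5 to 156 CPM in control and 5.85 to 80.7, 19.2 to 119, 12.6 to 34.4 and 11.2 to 48.4 CPM in Notch1-/-, Notch2-/-, the double mutants and Rbpj-/-. The defining markers Pecam1, Cdh5 and Cldn5 of endothelium and Pdgfrb, Rgs5 and Vtn of mural cells were above 0 in every library. Notch1-/- replicate 5, the library with 5.04 CPM of Notch4, had 47.6 CPM of Pdgfrb and 5.16 CPM of Cdh5, beside 0.52 to 2.44 CPM and 0.246 to 0.88 CPM in the other 5. The other defining markers there were below every control library. Pecam1, Cldn5, Rgs5 and Vtn held 2.47, 1.69, 6.11 and 3.78 CPM, beside lowest control values of 3.22, 2.46, 8.89 and 7.59 CPM. The endothelial sum of that library, 39.7 CPM, was also below every control library. In sorted bulk libraries, fewer cells of a type and less RNA per cell cannot be told apart.

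With the endothelial or the mural score of each library as a covariate, neither fall of Notch3 or Notch4 remained. Unlike the mural sum above, the mural score was made from all 11 mural genes, Cspg4 included. Notch4 in Notch1-/-Notch2-/- became 1.20 (adjusted p = 0.293) and 0.37 (adjusted p = 0.610) on the log2 scale, and Notch3 in Notch1-/- became -0.13 (adjusted p = 0.976) and 0.07 (adjusted p = 0.958). Notch2 in Notch2-/- was -0.74 with the endothelial score (adjusted p = 0.0424) and -0.72 with the mural score (adjusted p = 0.0540). The scores also moved calls of other genes. In Notch1-/- 4174 genes passed without a score, 8 with the endothelial and 31 with the mural one. In the double mutants these numbers were 5794, 129 and 2309, and in Notch2-/- 46, 37 and 35. Markers of microglia and macrophages fell too, 13 of 13 in Notch1-/-, 12 in Notch1-/-Notch2-/- and 12 in Rbpj-/-, with none in Notch2-/-, beside the shares of all genes given above. Their summed level was 350 to 1480 CPM in control and 47.4 to 154 CPM in the double mutants. Mature oligodendrocyte markers fell as well, 5, 7 and 6 of 7 in the same genotypes and none in Notch2-/-, with sums of 8130 to 21500 CPM in control and 1070 to 4290 CPM in the double mutants. The part of these cell types in the values of Notch3 and Notch4 was not tested beyond these covariates.

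**Figure D3:**
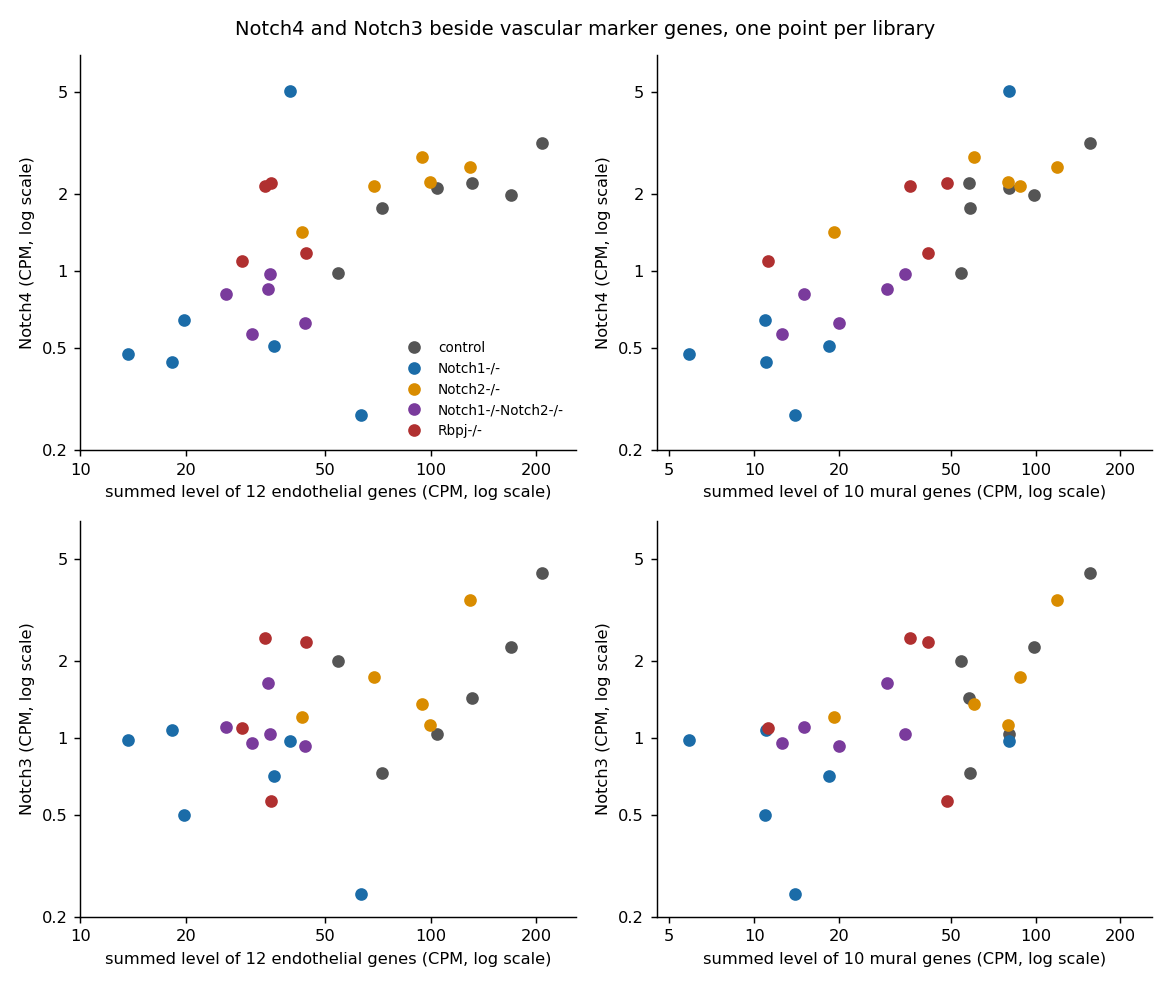
Each point is a library, coloured by genotype, with the level of Notch4 (upper panels) or Notch3 (lower panels) against the summed level of 12 endothelial genes (left) or 10 mural genes (right), all in CPM on log axes. Notch4 is below 1 CPM in all double mutants, whose sums are 26.1 to 43.9 CPM (endothelial) and 12.6 to 34.4 CPM (mural), and in 5 Notch1-/- libraries, whereas the Notch1-/- library at 5.04 CPM has 80.7 CPM of mural genes. That library has 39.7 CPM of endothelial genes, below every control library.

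Compensation among the receptors was read from the genes that were not deleted. No intact receptor passed as higher than control in a receptor mutant. In Notch1-/-, Notch2 stood at 13.4, 11.4, 18.1, 16.3, 16.2 and 14.3 CPM, a log2 difference from control of 0.24 ± 0.14 (interval -0.06 to 0.54, adjusted p = 0.218). A rise of Notch2 above 0.54 on the log2 scale is outside this interval. Notch1 in Notch2-/- stood at 140, 125, 130, 160 and 129 CPM, a log2 difference of 0.33 ± 0.25 (interval -0.18 to 0.85, adjusted p = 0.522). In the same tumours Notch3 differed by -0.16 ± 0.44 and Notch4 by 0.13 ± 0.53 on the log2 scale, with intervals from -1.07 to 0.75 and from -0.96 to 1.22 that allow a change of either sign. In Rbpj-/- these were -0.28 ± 0.47 for Notch3 and -0.29 ± 0.57 for Notch4.

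Adding the second receptor loss changed none of the 5 genes beyond the threshold relative to Notch1-/- alone. In that contrast edgeR, DESeq2 and limma voom each called 0 of 5, and each had 1 gene at an unadjusted p under 0.05, against 0.64% of all genes passing in edgeR. Notch1 differed by -0.05 ± 0.25, Notch3 by 0.59 ± 0.45 and Notch4 by -0.69 ± 0.55 on the log2 scale. The Notch4 value turned to 0.71 without Notch1-/- replicate 5. The interaction of both losses called 0 of 5 in each tool too. None was at an unadjusted p under 0.05 in edgeR or DESeq2 and 1 was in limma voom, while 0.0768% of all genes passed in edgeR. Interaction values were -0.38 ± 0.36 for Notch1, 0.75 ± 0.63 for Notch3, -0.82 ± 0.76 for Notch4 and 0.21 ± 0.26 for Rbpj. For Notch4 it was 0.58 without Notch1-/- replicate 5.

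Ordered by mean level, Notch1 was highest in Rbpj-/- (195 ± 59.0 CPM, SD), then Notch1-/- (144 ± 45.4), Notch1-/-Notch2-/- (139 ± 59.5), Notch2-/- (137 ± 14.2) and control (109 ± 30.8). No pair of neighbours in that order differed beyond its spread, with adjusted p from 0.522 to 0.962. Notch2 ran from Rbpj-/- (16.0 ± 2.07 CPM) over Notch1-/- (14.9 ± 2.40), control (12.7 ± 2.73) and Notch1-/-Notch2-/- (11.2 ± 1.32) to Notch2-/- (7.35 ± 0.950). Of its 4 neighbouring pairs only the last passed. Rbpj ran from Notch1-/-Notch2-/- (76.9 ± 14.2 CPM) over Notch1-/- (70.9 ± 14.3), control (61.2 ± 6.43) and Notch2-/- (57.4 ± 9.59) to Rbpj-/- (37.8 ± 13.5), and no neighbours passed. The last step, Rbpj-/- below Notch2-/-, was -0.60 ± 0.20 on the log2 scale (adjusted p = 0.132). Notch3 ran from control (1.97 ± 1.32 CPM) over Notch2-/- (1.77 ± 0.961), Rbpj-/- (1.62 ± 0.941) and Notch1-/-Notch2-/- (1.13 ± 0.294) to Notch1-/- (0.747 ± 0.324). Notch4 ran from Notch2-/- (2.22 ± 0.516 CPM) over control (2.03 ± 0.704), Rbpj-/- (1.66 ± 0.607) and Notch1-/- (1.23 ± 1.87) to Notch1-/-Notch2-/- (0.767 ± 0.166). No neighbours passed for either.

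Summed per length, most of the RNA counted for the 4 receptors was that of Notch1 in every genotype. These whole-gene counts do not show how much intact Notch1 RNA there was where Notch1 was labelled as deleted. Its share of receptor RNA was 79.3 to 95.4% over the 26 libraries. The share of Notch2 was 9.38 ± 1.78% in control (SD, n = 6), 9.02 ± 2.94% in Notch1-/- (n = 6) and 4.49 ± 0.727% in Notch2-/- (n = 5). Notch1-/-Notch2-/- had 7.34 ± 2.12% (n = 5) and Rbpj-/- 7.33 ± 2.97% (n = 4). Each Notch2-/- library, at 3.71 to 5.64%, was below every control library, at 6.42 to 11.7%. Notch3 held 1.78 ± 0.798% of receptor RNA in control and 0.627 ± 0.383% in Notch1-/-. Notch4 held 2.46 ± 0.907% in control and 0.832 ± 0.414% in Notch1-/-Notch2-/-, and its highest share, 6.51%, was in Notch1-/- replicate 5. The summed receptor level was 13.2 ± 3.52 CPM per kb in control and 22.5 ± 6.12 CPM per kb in Rbpj-/-.

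**Figure D4:**
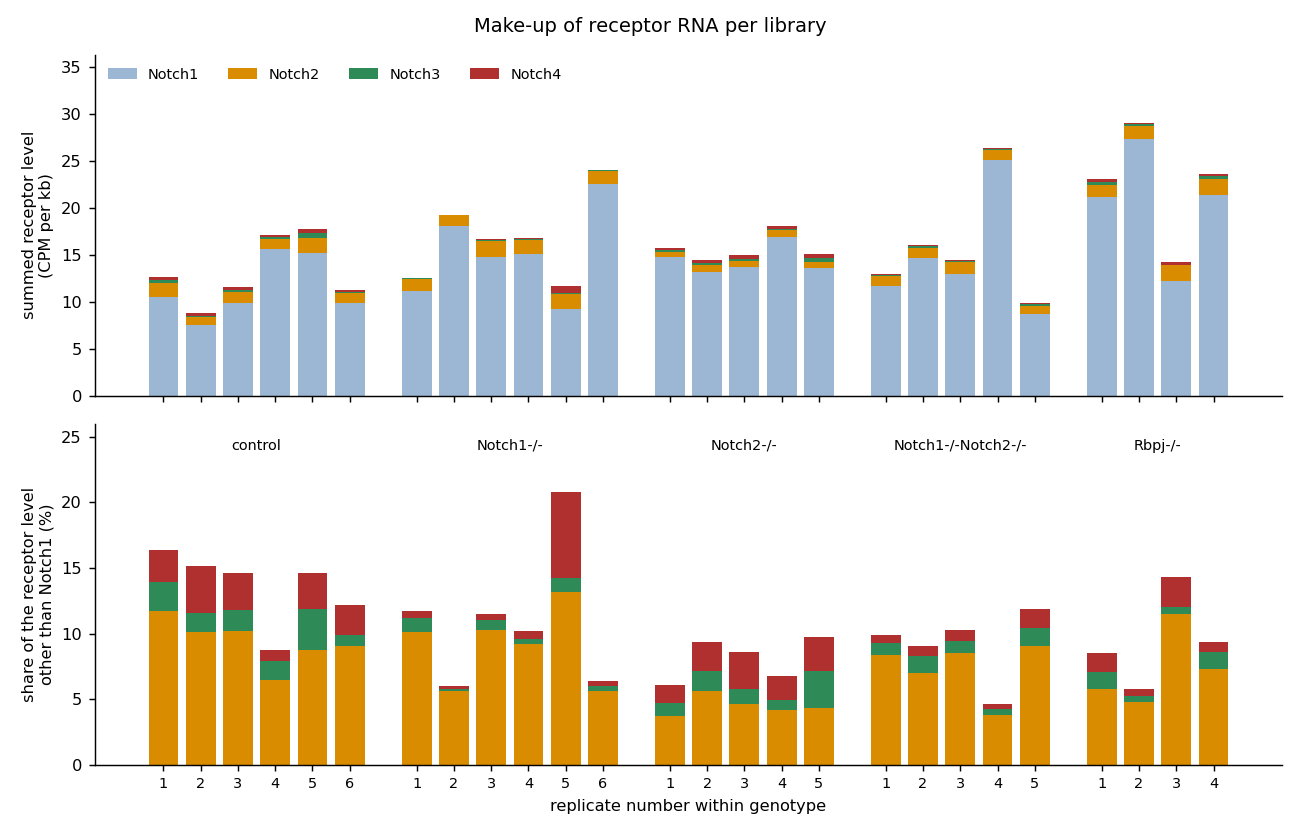
Upper bars give the summed level of the 4 receptors in each library (CPM per kb, from 0), split by receptor, and lower bars the share of that level held by Notch2, Notch3 and Notch4 (percent, from 0), with libraries by genotype and replicate number. Notch1 fills 79.3 to 95.4% of each upper bar, and the Notch2 part of the lower bars is 3.71 to 5.64% in Notch2-/-. Levels are of whole-gene RNA, also for genes labelled as deleted.

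Most of the 6 target genes followed fell in the genotypes that lack Notch1. Of 6 targets, 4 fell in Notch1-/-, 4 in Notch1-/-Notch2-/-, 1 in Rbpj-/- and none in Notch2-/-, and none rose. Of all genes 13.5%, 18.8%, 7.25% and 0.166% fell in these contrasts, and 1 of 6 in Rbpj-/- is near that background. Their median log2 fold changes were -1.09, -1.60, -0.59 and 0.13, beside 0.03, 0.01, 0.07 and 0.01 for all genes. Hes5, a repressor that keeps neural progenitors undifferentiated, was at 4.09 ± 2.05 CPM in control (SD, n = 6), 0.514 ± 0.149 in Notch1-/- (n = 6), 0.628 ± 0.327 in Notch1-/-Notch2-/- (n = 5) and 1.31 ± 0.654 in Rbpj-/- (n = 4). Its log2 fold changes were -2.99 ± 0.39, -2.69 ± 0.41 and -1.64 ± 0.43 (adjusted p = 5.85e-05, 6.91e-05 and 0.0148), without overlap with control in any of the 3.

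Nrarp, a feedback inhibitor of Notch, was at 23.1 ± 6.72 CPM in control, 6.55 ± 3.27 in Notch1-/- and 5.61 ± 1.77 in Notch1-/-Notch2-/-, without overlap. Its log2 fold changes there were -1.82 ± 0.30 and -2.04 ± 0.33. Hes1, a like repressor, was at 14.7 ± 3.44 CPM in control, 6.44 ± 3.95 in Notch1-/- (log2 -1.19 ± 0.37) and 2.71 ± 0.751 in Notch1-/-Notch2-/- (-2.44 ± 0.42). The Hes1 call in Notch1-/- was lost without control replicate 1 (-1.05), Notch1-/- replicate 1 (-1.11) or Notch1-/- replicate 6 (-1.07). Hey1, a related repressor, fell by 0.99 and 1.15 on the log2 scale in those genotypes. In Notch1-/- Hey1 overlapped control, at 12.7 to 27.5 CPM beside 25.3 to 41.7 CPM. In Rbpj-/- Hes1, Nrarp and Hey1 did not pass, at -0.77 ± 0.42, -0.40 ± 0.33 and -0.20 ± 0.21. Hey2 and Heyl, the remaining targets, passed in no mutant genotype. Hey2 was at 24.3 ± 3.94 CPM in control, 19.7 ± 11.0 in Notch1-/-, 25.9 ± 1.85 in the double mutants and 32.5 ± 8.96 in Rbpj-/-. Heyl was at 4.76 ± 1.73, 4.45 ± 7.0, 3.09 ± 0.999 and 2.16 ± 0.785 CPM in the same order. Notch1-/- replicate 2 held 40.1 CPM of Hey2 and 18.7 CPM of Heyl, above every control library. Astrocyte markers also fell, 5 of 7 in Notch1-/-, 6 in Notch1-/-Notch2-/- and 4 in Rbpj-/-, where 13.5%, 18.8% and 7.25% of all genes fell, with summed levels of 741 to 1190 CPM in control and 302 to 580 CPM in the double mutants. The part of these cells in the target values was not tested. With the endothelial score as a covariate, Hes5 still passed in Notch1-/- (-3.68, adjusted p = 0.0459) and Notch1-/-Notch2-/- (-3.35, adjusted p = 0.0230), whereas Nrarp did not (-1.79, adjusted p = 0.651, and -2.02, adjusted p = 0.0678). With the endothelial score Hes5 was the 1 gene to pass in Notch1-/- among 64 pathway genes besides the receptors and Rbpj. Hes1 and Hey1 thus lost their calls there too. With both vascular scores Hes5 was -3.76 in Notch1-/- (adjusted p = 0.0771) and -3.47 in the double mutants (0.0481). Of the 64 genes, 0 passed in Notch1-/- with both scores and 1, Hes5, in the double mutants. Hes5 in Rbpj-/- did not pass with the microglia (-2.13, adjusted p = 0.141), the endothelial (-2.12, 0.189), the mural (-1.85, 0.0503) or both vascular scores (-2.20, 0.307). Nrarp passed with the microglia score in Notch1-/- (-3.04, adjusted p = 0.0204) and the double mutants (-3.19, 0.00345). With the mural score it passed in the double mutants (-1.95, adjusted p = 0.00691) and not in Notch1-/- (-1.71, 0.138).

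**Figure D5:**
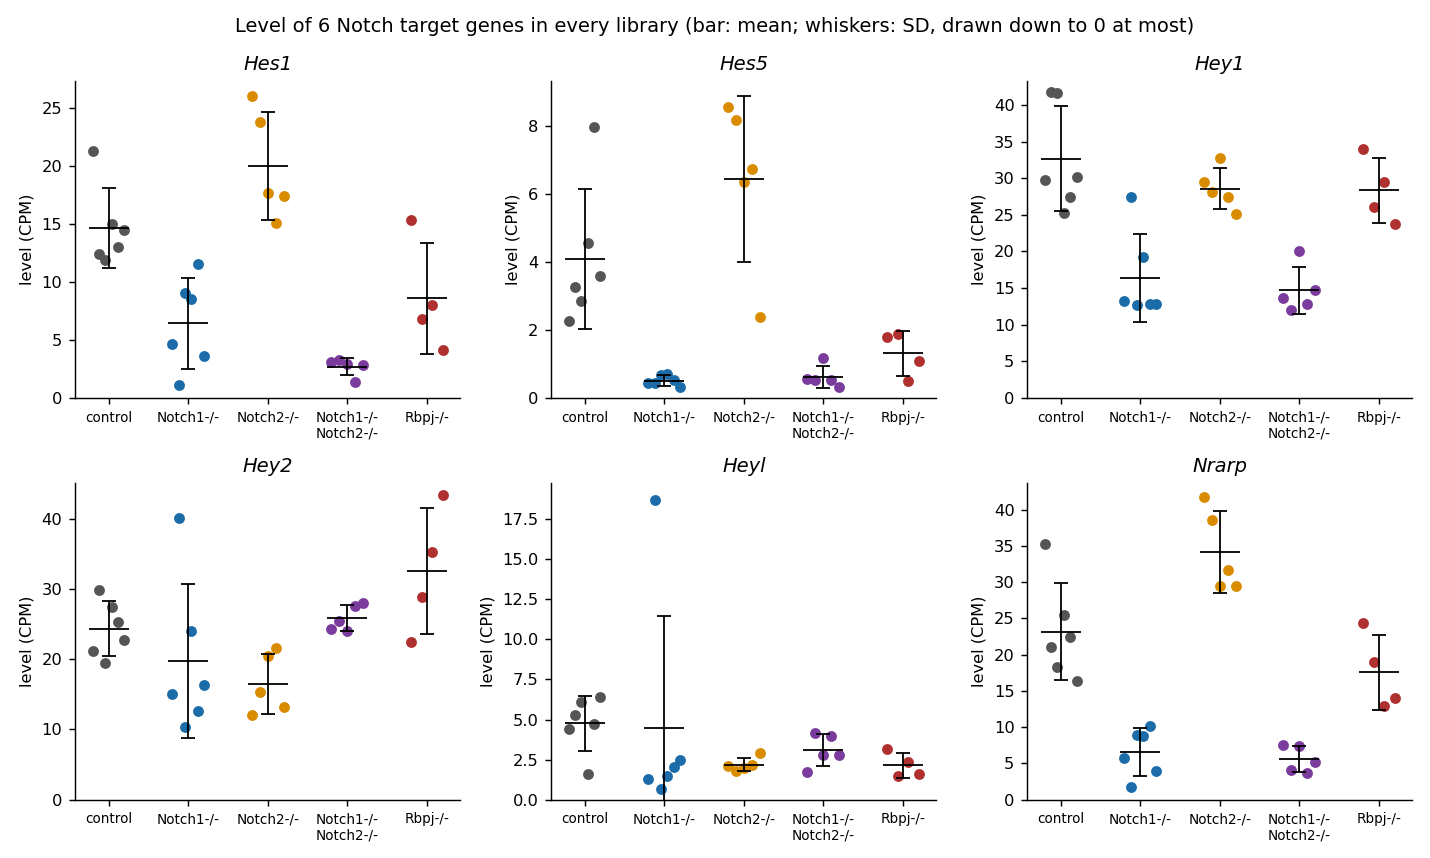
Each panel plots the level of 1 target gene (vertical axis, CPM from 0) in the 26 libraries by genotype, with a bar at the mean and whiskers of 1 SD drawn down to 0 at most. Hes5 and Nrarp in Notch1-/- and in Notch1-/-Notch2-/- lie below every control library, whereas Nrarp in Rbpj-/- overlaps control.

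Ligands moved in both directions. Dll3, a ligand that does not activate Notch on neighbouring cells, rose in Notch1-/- (log2 0.47 ± 0.15), Notch1-/-Notch2-/- (1.15 ± 0.15, adjusted p = 1.57e-05) and Rbpj-/- (0.63 ± 0.16). Its level went from 38.9 ± 3.26 CPM in control to 86.2 ± 12.8 CPM in the double mutants, without overlap. Jag1, an activating ligand, rose in Notch1-/- (log2 1.08 ± 0.28). Dll4, a ligand of endothelium, fell in Notch1-/- (-2.37 ± 0.40), Notch1-/-Notch2-/- (-1.09 ± 0.40) and Rbpj-/- (-1.59 ± 0.44), beside the endothelial marker sums given above. Its mean level was low, at 0.924 CPM in control and 0.178, 0.435 and 0.304 CPM in those genotypes, so its folds are imprecise. The Dll4 call in Notch1-/-Notch2-/- was lost without any of control replicates 1, 2, 3 and 5 or double-mutant replicates 1, 2, 3 and 5 (log2 from -1.13 to -0.87), and that in Rbpj-/- without Rbpj-/- replicate 1 (-1.58) or 2 (-1.43). The Dll3 call in Notch1-/- was lost without control replicate 2 (0.43). Dlk1, a membrane protein like the ligands, rose by 2.52 ± 0.79, 3.66 ± 0.84 and 3.43 ± 0.85 on the log2 scale in the same genotypes. Dlk1 varied widely, from 0.569 to 6.01 CPM in control, 0.52 to 30.5 CPM in Notch1-/- and 2.03 to 57.2 CPM in Rbpj-/-, which both overlapped control. In the double mutants Dlk1 held 7.51 to 52.2 CPM, without overlap. Its call in Notch1-/- was lost without control replicate 2, 3 or 6 or Notch1-/- replicate 3 (1.91 to 2.41), and that in Rbpj-/- without Rbpj-/- replicate 1 (2.20).

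Over all 64 genes of the pathway besides the receptors and Rbpj, 12 rose and 7 fell in Notch1-/-, 10 rose and 9 fell in the double mutants, 6 rose and 2 fell in Rbpj-/-, and none changed in Notch2-/-. In either direction these were 29.7%, 29.7%, 12.5% and 0% of the 64, beside 26.7%, 37.1%, 15.2% and 0.295% of all genes, and with shares near the background they are no result about the list. The median log2 fold changes were 0.14, 0.05, 0.18 and 0.10 in that order. For Notch2-/-, where edgeR called 0, DESeq2 called 1 and limma voom 7. The coactivators Maml1 (0.39 ± 0.12, 0.47 ± 0.13 and 0.47 ± 0.14) and Kat2a (0.45 ± 0.13, 0.54 ± 0.13 and 0.60 ± 0.14) rose in Notch1-/-, Notch1-/-Notch2-/- and Rbpj-/-. The corepressor Spen rose in Notch1-/- (0.66 ± 0.22) and Rbpj-/- (0.79 ± 0.24). Lfng, a glycosyltransferase that modifies the receptors, fell in Notch1-/- (-1.55 ± 0.45) and Notch1-/-Notch2-/- (-1.87 ± 0.49). Of 10 proteases, Aph1c fell in Notch1-/- (-0.86 ± 0.24). In the double mutants Psen2 (-0.72 ± 0.20) and Aph1a (-0.41 ± 0.15, adjusted p = 0.0349) fell. All are gamma-secretase subunits. These were 10% and 20% of the proteases, where 13.5% and 18.8% of all genes fell. With shares near the background they are no result about the proteases. The Aph1a call was lost without control replicate 1, 2 or 3 or double-mutant replicate 2, 4 or 5 (-0.41 to -0.35). Neurl1b, a ubiquitin ligase of the ligands, rose in the 3 genotypes, by 0.76 ± 0.25, 0.97 ± 0.26 and 1.24 ± 0.27. Several of these calls were near the threshold and were lost when any 1 of several libraries was left out, with the direction kept. Maml1 lost its call in Notch1-/- without control replicate 2, 3 or 6 or Notch1-/- replicate 3 (0.34 to 0.37), and in Rbpj-/- without control replicate 2 or 6 or Rbpj-/- replicate 1, 2 or 4 (0.41 to 0.48). Spen lost it in Notch1-/- without control replicate 2, 3 or 6 or Notch1-/- replicate 3 or 6 (0.50 to 0.63), and in Rbpj-/- without control replicate 2, 3 or 6 or Rbpj-/- replicate 2 or 4 (0.61 to 0.72). Neurl1b lost it in Notch1-/- without control replicate 2, 3 or 5 or Notch1-/- replicate 3 or 4 (0.55 to 0.71).

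The genes most like each of the 5 were found by Pearson r of log2 CPM over the 26 libraries among 11941 genes, given as a description with no p, since genotype, depth and cell makeup are shared by all points. Notch4 was most like Myl9 (r = 0.919), a myosin light chain of contractile cells, Fbln2 (0.906), a matrix protein, and Cdh5 (0.900), the cadherin of endothelium. Within genotypes these stood at 0.919, 0.880 and 0.832. Notch1-/- replicate 5, far above its group with 5.04 CPM of Notch4 and 5.16 CPM of Cdh5, was included. The values without it were not computed. Notch3 was most like Kdr (0.756, within genotypes 0.674), the endothelial receptor for VEGF, Pald1 (0.716, 0.784) and Gfra2 (0.713, 0.597). For Notch1 the genes were Trak1 (0.801, 0.713), Wdtc1 (0.793, 0.758) and Mon1b (0.757, 0.760), and the most opposed were Jkamp (-0.796), Timm21 (-0.772) and Tm9sf2 (-0.757). Rbpj was most like BC051142 (0.794), Mdm2 (0.786), the ubiquitin ligase of p53, and Gpbp1l1 (0.786), and most opposed to Pla2g12a (-0.844), Rprm (-0.835) and Scarb1 (-0.826). Within genotypes these were 0.647, 0.793, 0.852, -0.793, -0.769 and -0.753. By rank (Spearman) they were 0.570, 0.614, 0.702, -0.781, -0.530 and -0.729, so BC051142, Mdm2 and Rprm were less close by rank. Notch2 had no close match: Adat2 (0.586), Tdg (0.582) and Mccc1 (0.567) led, and within genotypes they fell to 0.164, 0.325 and -0.118.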

How the data were processed

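Sorted glioma cells gave RNA-seq libraries (TruSeq Stranded RNA LT, NextSeq 500), per the labels' protocols. The authors deposited whole-number counts per gene under Entrez identifiers with a gene length. STAR and mm10 are named in the submitters' processing notes, whereas the counter, its annotation and its use of strand were not given in the sources used here. Reads of overlapping genes could therefore not be told apart. Gene symbols came from RefSeq (24374 of 24454 matched, and the 80 others held 0.348% of counts).

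Counts of the 26 libraries were filtered with filterByExpr, scaled by TMM and fitted together by genotype in edgeR 4.0.16 (R 4.3.3). Its quasi-likelihood test was used, with Benjamini-Hochberg adjustment over 15617 genes. A gene was called at an adjusted p under 0.05. The common biological coefficient of variation was 0.368. Standard errors come from the fold change and its F statistic, and log2 CPM used a prior count of 2. CPM and CPM per kilobase of the deposited length were computed from the counts. Total counts were 37613009 to 46703709 for control, 31593287 to 42378306 for Notch1-/-, 37786708 to 48103535 for Notch2-/-, 35046873 to 44376594 for the double mutants and 30868828 to 44302365 for Rbpj-/-. The fit was tested on simulated data.

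The genes and lists were chosen with earlier results of these data known. Named genes were the receptors and Rbpj, up to 4 pathway genes called per list and comparison, defining markers, and the 3 most and 3 least alike genes of each by r. Alternatives were DESeq2 1.42.0 (Wald test, size factors), limma 3.58.1 (voom with quality weights), other filters, a replicate block, fits on the compared genotypes alone, marker scores as covariates, and libraries left out. The 2 vascular scores together and the mural sum without Cspg4 were chosen after seeing the data. Replicate numbers were not taken to pair the libraries in the main fit. Protein sequences were not used here.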

Additional observations from a re-analysis of the deposited data

Results flagged for a closer look

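Of 25 sets of libraries (5 genes in 5 genotypes), 3 held a library far from the rest by Dixon's test, where chance gives about 1 in 20. Notch4 was at 5.04 CPM in Notch1-/- replicate 5, beside 0.274 to 0.646 CPM in the other 5 libraries of that genotype. Notch3 was at 3.44 CPM in Notch2-/- replicate 5, beside 1.12 to 1.72 CPM in the other 4. Notch3 was at 1.64 CPM in Notch1-/-Notch2-/- replicate 2, beside 0.929 to 1.10 CPM in the other 4. All 3 were high values of the rare receptors.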

How the results depend on the processing

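For the 5 genes, 42 results gave 489 values under other settings, of which 409 kept direction and side of the threshold, 39 lost the call, 2 gained it and 39 turned sign. Unless a value shows otherwise, the cause was not tested. The limits are few counts of Notch3 and Notch4, counts summed over exons, and marker scores that differ by genotype, so that a covariate also takes up genotype.

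Without a filter, Notch4 in Notch1-/-Notch2-/- against control was -1.40 (log2, adjusted p = 0.0578), and with a filter of 10 CPM Notch1 in Rbpj-/- was 0.77 (adjusted p = 0.0510). With limma voom, Notch4 in Notch1-/- passed at -1.48, Notch3 in Notch2-/- was 0.26, Notch4 in Notch1-/-Notch2-/- against Notch1-/- was 0.03 and Notch1 in Notch1-/-Notch2-/- against Notch2-/- was -0.16. With only the compared genotypes, Notch1 and Rbpj in Rbpj-/- were 0.81 and -0.73 and did not pass. Without the 3 libraries holding Xist and Y-linked RNA together, Notch2 in Notch2-/- was -0.86, Notch4 in Notch1-/-Notch2-/- -1.44 and Notch1 in Rbpj-/- 0.81, none passing, and Notch4 in Notch2-/- was -0.03.

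Mutant libraries were compared with the control of the same replicate number, after removing genotype means. Over 20 such pairs r ran from -0.342 to 0.572, and 4 correlated best with their own number. Shared handling by replicate number was not tested beyond this and the replicate block. With the replicate block, Notch4 in Notch1-/- passed at -1.26, whereas Notch2 in Notch2-/- (-0.80, adjusted p = 0.0561) and Notch1 in Rbpj-/- (0.83, adjusted p = 0.0545) did not pass. Notch1 in Notch1-/-Notch2-/- against Notch2-/- was -0.03 and Notch3 in Rbpj-/- against Notch2-/- 0.07 under the block, and 5 pathway genes passed in Rbpj-/-.

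With the microglia and macrophage score, values against control in Notch1-/- were -0.01 for Notch2 and -1.50 for Notch3, in Notch2-/- -0.33 for Notch4 and 0.02 for Rbpj, in Notch1-/-Notch2-/- -2.67 for Notch4, and in Rbpj-/- 1.12 for Notch1 and -0.39 for Rbpj, none passing. Dlk1, Jag1 and Neurl1b in Notch1-/- were -0.21, -0.12 and -0.23, Dll4 in Notch1-/-Notch2-/- 0.15 and Hey1 in Rbpj-/- 0.02.

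With the endothelial score, Notch3 and Notch4 were -0.13 and 1.55 in Notch1-/-, 0.34 and 1.20 in Notch1-/-Notch2-/- and 0.56 and 1.62 in Rbpj-/-, and Notch3 in Notch2-/- was 0.05. Notch2 in Notch1-/-Notch2-/- was 0.09, Notch1 and Rbpj in Rbpj-/- 0.69 and -0.70 (neither passing), and Dll4 in Notch1-/-Notch2-/- 0.71. Notch1 in Notch1-/-Notch2-/- against Notch2-/- was -0.15, Notch2 in Rbpj-/- against Notch1-/- 0.00 and Notch3 in Rbpj-/- against Notch2-/- 0.51.

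With the mural score, Notch3 and Notch4 were 0.07 and 0.91 in Notch1-/-, 0.36 and 0.37 in Notch1-/-Notch2-/- and 0.53 and 1.08 in Rbpj-/-, and Notch3 in Notch2-/- was 0.20. Notch2 was -0.72 in Notch2-/- and 0.06 in Notch1-/-Notch2-/-, and Notch1 and Rbpj in Rbpj-/- were 0.63 and -0.67, none passing. Notch1 in Notch1-/-Notch2-/- was 0.02 against Notch1-/- and -0.18 against Notch2-/-, Notch2 in Rbpj-/- against Notch1-/- -0.02 and Notch3 in Rbpj-/- against Notch2-/- 0.32.

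With both vascular scores, chosen after seeing the data, Notch3 and Notch4 were -0.41 and 1.34 in Notch1-/- and 0.12 and 1.42 in Rbpj-/-, Notch3 in Notch2-/- 0.20 and Notch4 in Notch1-/-Notch2-/- 0.88. Notch2 was -0.72 in Notch2-/- and 0.01 in Notch1-/-Notch2-/-, Notch1 and Rbpj in Rbpj-/- were 0.77 and -0.72 (none of these passing), Dll4 in Notch1-/-Notch2-/- 0.78, Notch1 in Notch1-/-Notch2-/- against Notch1-/- 0.03 and Notch2 in Rbpj-/- against Notch1-/- -0.01.

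Pathway genes passing in Notch1-/- numbered 34 with limma voom, 2 with the microglia score, 1 with the endothelial, 1 with the mural and 0 with both vascular scores, and in Notch1-/-Notch2-/- 4, 3, 9 and 1 with those scores. In Rbpj-/- 18 passed with limma voom, 4 with only the compared genotypes, and 0, 0, 1 and 0 with the scores. In Notch2-/- 1 passed with DESeq2, 7 with limma voom and 1 with only the compared genotypes. Over all genes, 46 passed in Notch2-/-, 344 with DESeq2, 1790 with limma voom, 182 with only the compared genotypes, 25 with the block, 16 with the 10 CPM filter and 12 without the 3 libraries.

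Leaving out single libraries gave -1.54 to -1.23 for Notch4 and 0.07 to 0.50 for Notch1 in Notch1-/-Notch2-/-, 0.68 to 1.03 for Notch1, -0.89 to -0.49 for Rbpj and -0.56 to 0.12 for Notch3 in Rbpj-/-, -0.86 to -0.70 for Notch2, -0.55 to 0.25 for Notch3 and -0.01 to 0.30 for Notch4 in Notch2-/-, and -1.57 to -0.99 for Notch3 and -2.11 to -0.50 for Notch4 in Notch1-/-. Between mutants it gave -0.33 to 0.10 for Notch1 and -0.89 to 0.71 for Notch4 in Notch1-/-Notch2-/- against Notch1-/-, -0.26 to 0.16 for Notch1 in Notch1-/-Notch2-/- against Notch2-/-, -0.40 to 0.26 for Notch3 in Rbpj-/- against Notch2-/- and -1.01 to 0.58 for Notch4 in the interaction. Pathway genes passing ran from 12 to 26 in Notch1-/-, 15 to 23 in Notch1-/-Notch2-/-, 5 to 16 in Rbpj-/- and 0 to 0 in Notch2-/-.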

Other observations

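Receptor RNA relative to Rbpj RNA, per length, was 1.29 ± 0.304 in control (SD, n = 6), 1.43 ± 0.373 in Notch1-/- (n = 6), 1.66 ± 0.305 in Notch2-/- (n = 5) and 1.24 ± 0.395 in Notch1-/-Notch2-/- (n = 5). In Rbpj-/- it was 4.09 ± 2.19 (n = 4), and its lowest library there, at 1.95, was above the highest control library, at 1.68. Notch1 relative to Notch2 was 9.59 ± 2.46 in control and 20.9 ± 3.39 in Notch2-/-, with libraries at 7.17 to 14.2 and 16.1 to 25.3. Both ratios rest on the genes deleted, and no test was made of them.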
